A study of Mus musculus with 36 samples.

Results

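Bhas 42 cells exposed to the synthetic amorphous silica NM-203 at 5 µg/cm² were compared with Bhas 42 cells given water at 2%. A gene was tested where at least 3 samples of any group of the series had it well above background. Some tested genes were therefore dim in both groups compared here. The samples were chosen by their titles, which gave 4 samples for each group, so 8 of the 36 samples of the series. Bhas 42 cells descend from the mouse fibroblast line BALB/c 3T3 and carry an added viral Ha-ras oncogene. Every group compared here carries that oncogene, and a single line was used. Exposure began on day 4 of culture in both groups and lasted 48 h, with collection on day 6. Another 3 groups of 4 samples, exposed to diatomaceous earth (DE) at 5 µg/cm² and to NM-203 at 1 and 2 µg/cm² for the same time, served to show where the response to NM-203 at 5 µg/cm² differed. The other water group, labelled for Min-U-Sil 5, was not used as a control. That group and those given Min-U-Sil 5 at 20 µg/cm², DMSO at 0.1% or the phorbol ester TPA at 0.05 µg/ml were not compared here. Their arrays still entered the probe filter, the choice of a gene's probe and the estimate of the spread. Below, "NM-203 samples" are those at 5 µg/cm².

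Bhas 42 cells are used in cell transformation assays, in which treated cultures are examined for foci of cells that pile up over a contact-inhibited monolayer. Cells that leave growth arrest switch on genes of DNA replication through E2F factors, then genes of mitosis through the factors Mybl2 and Foxm1, and they need more ribosomes, nucleotides and amino acids. Resting fibroblasts make and anchor the extracellular matrix and secrete complement, growth factors and their antagonists. Silica particles are known to provoke inflammatory signalling in many cell types.

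Some of the genes that rose have promoters that carry recognised regulatory motifs, shown here because they belong to groups of genes described below. The sequences are from RefSeq (GRCm38.p6), 5′ to 3′ on the strand of the gene and upstream of the start site, with the motif in capitals. Both strands were searched over 250 bases upstream. The first pair holds 2 copies of GAAA set 2 bases apart, a core of the interferon-stimulated response element: Saa3 (chr7:46715752-46715841, minus strand) encodes an acute-phase serum amyloid, and Cxcl10 (chr5:92349050-92349139, minus strand) encodes a chemokine. The E2F motif TTTCGCGC is shown for Uhrf1 (chr17:56304087-56304176, plus strand), a factor of maintenance DNA methylation, and Cdk1 (chr10:69352995-69353084, minus strand), the mitotic kinase. The cell cycle homology region TTTGAA is shown for Cdca5 (chr19:6085007-6085096, plus strand), which encodes the cohesion factor sororin. The promoter of Nlrp2, a NOD-like protein gene that rose more than Cdca5, also holds TTTGAA and is not shown. The motif TGATGCAA, bound by ATF4 with a C/EBP partner, is shown for the cystine transporter gene Slc7a11 (chr3:50443614-50443703, minus strand). A condensin gene that rose also holds TGATGCAA upstream and is not shown.
Saa3: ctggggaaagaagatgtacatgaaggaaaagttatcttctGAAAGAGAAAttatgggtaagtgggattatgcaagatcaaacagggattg
Cxcl10: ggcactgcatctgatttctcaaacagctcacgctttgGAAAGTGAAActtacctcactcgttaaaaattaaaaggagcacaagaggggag
Uhrf1: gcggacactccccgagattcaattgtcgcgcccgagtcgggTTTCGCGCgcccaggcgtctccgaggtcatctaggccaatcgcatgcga
Cdk1: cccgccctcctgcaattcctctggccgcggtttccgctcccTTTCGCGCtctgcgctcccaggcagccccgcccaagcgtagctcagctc
Cdca5: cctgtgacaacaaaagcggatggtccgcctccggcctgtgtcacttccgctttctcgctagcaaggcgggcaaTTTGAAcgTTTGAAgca
Slc7a11: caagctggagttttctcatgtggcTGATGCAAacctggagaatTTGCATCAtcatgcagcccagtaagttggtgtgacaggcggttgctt

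Of the 17872 tested genes with a symbol, 14132 had a promoter in the RefSeq table. The pair of GAAA copies was found upstream of 3.39% of these, of 3.94% of the genes that rose and of 2.12% of those that fell. Among oligoadenylate synthetase and guanylate-binding protein genes, a family induced by interferon, 8 of 10 promoters held it. The E2F motif was found upstream of 0.509% of the tested genes, of 1.12% of those that rose and of 0.465% of those that fell. For TGATGCAA the shares were 0.800% of tested genes, 0.893% of genes that rose and 0.930% of genes that fell. The shorter TTTGAA stood upstream of 14.9% of tested genes, 15.3% of genes that rose and 11.6% of genes that fell, and of 7 of 14 promoters of cohesin and condensin genes. It also stood in 4 of 8 promoters of small leucine-rich proteoglycan genes, most of which fell. Among kinetochore genes, all of which rose, 4 of 23 promoters held it. Over all 27025 genes of the table the shares were 3.46%, 0.300%, 0.918% and 18.3%. The AP-1 motif TGANTCA stood upstream of 6.73% of tested genes, 4.8% of genes that rose and 6.44% of genes that fell, against 7.82% of the whole table, and no promoter is shown for it. The E-box CACGTG stood upstream of 8.57% of tested genes, 9.9% of genes that rose and 8.83% of genes that fell, against 6.86% of the whole table, and no promoter is shown for it. The gene groups whose promoter counts are given here were picked after their counts were seen. A match is a description of the letters in this window and says nothing about binding.

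Each sample was hybridised to a 1-colour array, and a gene's value is its spot intensity relative to the 75th percentile of its array, so that a relative intensity of 1 equals that percentile. In the 8 samples 55.1% to 67.2% of probes were well above background and the 75th percentile lay between 636 and 768. The analysis tested 32490 gene names. Pearson correlations across genes were 0.984 to 0.991 among the NM-203 samples, 0.981 to 0.990 among the water samples and 0.962 to 0.979 between the groups. The first principal component held 48.6% of the variance and set the NM-203 samples (41.2 to 74.4) apart from the water samples (-68.2 to -60.0), with NM-203 replicate 4 nearest to water. The NM-203 samples lay on slides 5, 3, 1 and 1 (replicates 1 to 4) and the water samples on slides 2, 2, 3 and 1, and NM-203 replicate 1 was scanned on another day. The labels do not tie a replicate number to an experiment, so p-values measure the spread between samples within groups. That spread was taken from the fit of all 9 groups of the series, and the number of arrays limits its precision.

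NM-203 at 5 µg/cm² changed 10740 of 32490 gene names (33.1%) at a limma adjusted p under 0.05, of which 4549 were higher (14.0%) and 6191 lower (19.1%). In 11714 gene names (36.1%) the groups did not overlap. The median log2 change over all gene names was 0.0068. At least 2-fold changes were called in 1368 gene names that rose (4.21%) and 2288 that fell (7.04%), and at least 8-fold changes in 18 that rose and 63 that fell. Scaling each array on the median of the tested genes moved the median log2 change of all gene names to 0.107 and gave 4416 higher and 4065 lower gene names. With slide as a block over all arrays 10590 gene names were called. Within a slide the arms are too small for a replicate check: slide 1 holds 2 NM-203 arrays and 1 water array, and slide 3 holds 1 of each, so the spread was taken from the fit of all groups, and a lone array is assumed to vary like them. On that assumption 5572 gene names were called within slide 1 and 5192 within slide 3. The log2 change of Saa3 was 4.76 within slide 1 and 5.04 within slide 3, and that of Ptgds, the prostaglandin D synthase, was -4.19 within slide 1 and -3.79 within slide 3, as values of these few arrays. In what follows "rose" and "fell" mean a limma adjusted p under 0.05, changes are on the log2 scale with their standard error (SE, 4 samples a group), and the share of a gene group that changed is to be read against the 17872 gene names with a symbol, of which 18.5% rose and 21.3% fell. Rbl2, Ccnd1, Asf1a, Asf1b, Aldh1l1, Paox, Il1r1, Il6, Ifnb1, Cx3cl1, Ccn1, Ccn5, Hras, Tyro3, Bak1 and Bax lie outside the rule for named genes and were chosen after their values were seen.

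**Figure D1:**
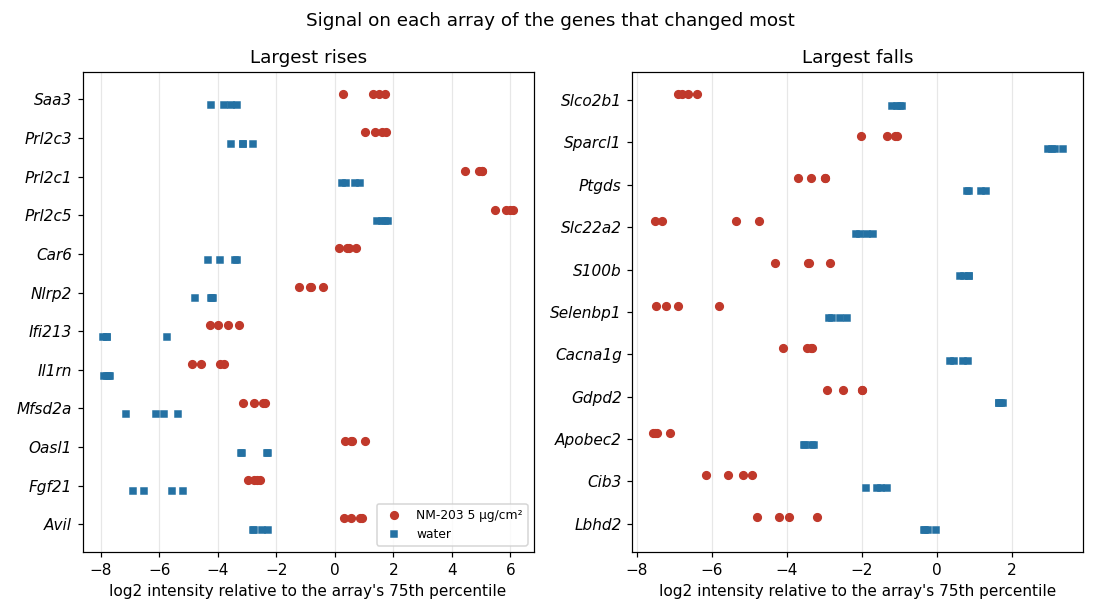
Log2 intensity relative to the array's 75th percentile (horizontal axis) of the 12 genes with the largest rises (left) and 11 of the 12 with the largest falls (right), one circle per NM-203 sample and one square per water sample. For each of the 23 genes the 4 NM-203 samples lie on one side of the 4 water samples, as the choice of these genes required. A gene that stayed near background throughout a group is drawn at its measured values.

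The largest rises included genes of secreted proteins. Saa3 had relative intensities of 2.45, 2.82, 3.27 and 1.20 in the NM-203 samples, against 0.0994, 0.0525, 0.0857 and 0.0730 in the water samples. All NM-203 samples were above all water samples, NM-203 replicate 4 being the lowest of them (log2 change 4.92 ± 0.27, limma adjusted p = 3.39e-14). Car6, the secreted carbonic anhydrase, had 1.38, 1.32, 1.64 and 1.11 in the NM-203 samples, against 0.0989, 0.0940, 0.0657 and 0.0495 in the water samples (log2 change 4.19 ± 0.21, limma adjusted p = 6.52e-15). Its groups lay far apart, whereas among the other carbonic anhydrases Car13 rose by 0.80 log2 units, Car9 fell by 1.33 log2 units and Car11 fell by 1.04 log2 units. Avil, an actin-binding protein of the villin family, had 1.23, 1.48, 1.91 and 1.80 in the NM-203 samples, against 0.205, 0.179, 0.147 and 0.144 in the water samples (log2 change 3.24 ± 0.21, limma adjusted p = 9.39e-13). The groups were again separate. Mfsd2a, a transporter of lysophospholipids, had 0.189, 0.182, 0.148 and 0.112 in the NM-203 samples, against 0.0243, 0.0175, 0.00709 and 0.0144 in the water samples. It was well above background in all NM-203 samples and in none of the water samples, so that it was at least 7.12-fold higher (limma adjusted p = 2.26e-07). Ifi213, of the interferon-inducible Ifi200 family, was at least 3.37-fold higher (limma adjusted p = 3.83e-08) by the same measure, and the hormone gene Fgf21, well above background in 2 of 4 water samples, had 0.159, 0.147, 0.169 and 0.127 in the NM-203 samples, against 0.0273, 0.0110, 0.0213 and 0.00829 in the water samples.

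Enzyme and transporter genes were among those that fell most. Slc22a2, an organic cation transporter, had relative intensities of 0.0246, 0.00544, 0.00625 and 0.0374 in the NM-203 samples, against 0.310, 0.240, 0.274 and 0.224 in the water samples. It was well above background in 1 NM-203 sample only, so that the log2 change of the measured values, -4.29, is of uncertain size (limma adjusted p = 2.25e-10). Selenbp1, the methanethiol oxidase, had 0.00670, 0.00557, 0.00830 and 0.0180 in the NM-203 samples, against 0.169, 0.191, 0.137 and 0.145 in the water samples. It was not well above background in any NM-203 sample and was at least 5.90-fold lower (limma adjusted p = 7.51e-14). By the same measure Slco2b1, which carries organic anions, was at least 18.1-fold lower (limma adjusted p = 4.55e-16) and Apobec2, of the APOBEC deaminase family, was at least 3.49-fold lower (limma adjusted p = 3.7e-16). The T-type calcium channel subunit gene Cacna1g fell by 4.15 log2 units, the glycerophosphodiester phosphodiesterase gene Gdpd2 fell by 4.05 log2 units and the calcium-binding protein gene Cib3 fell by 3.89 log2 units. Lbhd2 fell by 3.81 log2 units. The size of a fall is likewise uncertain for other genes dim in a part of the NM-203 samples: Cib3, Anpep, Ptger1, Col4a6, Cdh15 and Wnt10a were well above background in 1 of 4, Kera, S100a8, Ces1d and Igf1 in 2 of 4 and Itga11, Dkk3, Rgs16 and Cnn1 in 3 of 4. Ifnb1, which rose, was well above background in 3 NM-203 samples and 1 water sample.

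**Figure D2:**
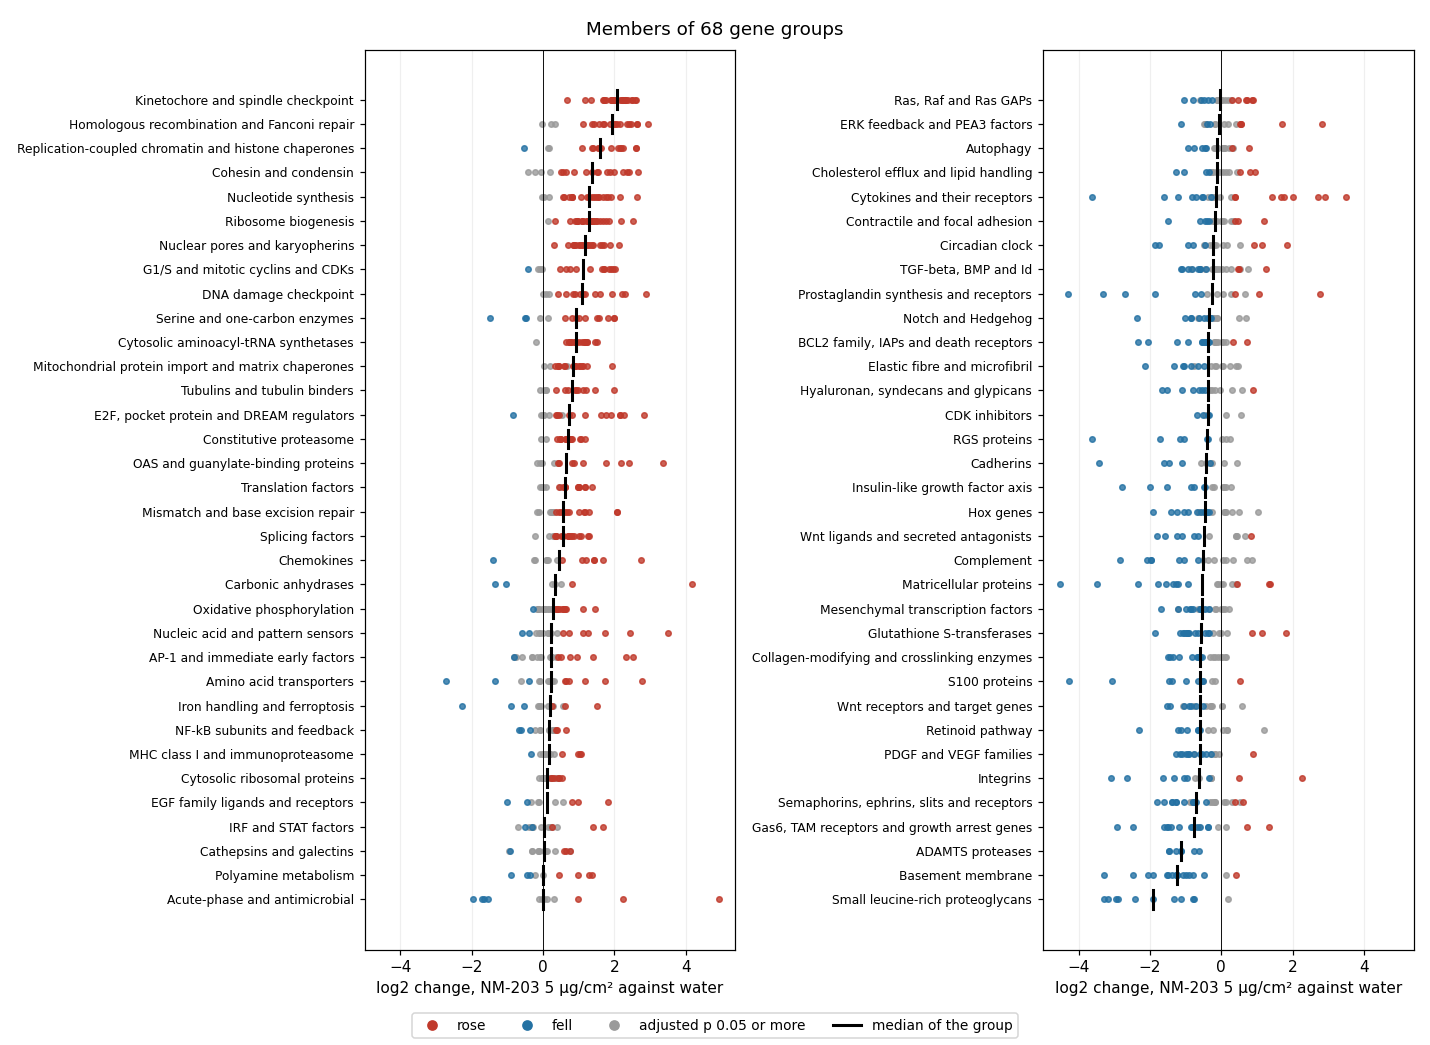
Log2 change between the NM-203 and water samples (horizontal axis) of every tested member of 68 gene groups (rows, ordered by their median), with red for members that rose, blue for members that fell, grey for members with a limma adjusted p of 0.05 or more and a black bar for the group's median. Kinetochore genes had the highest median, 2.08, and small leucine-rich proteoglycans the lowest, -1.92.

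Genes of the cell division cycle rose from their regulators down to the proteins that move chromosomes. Mybl2, the B-Myb subunit that switches the DREAM repressor complex to activation, had relative intensities of 6.50, 6.41, 6.77 and 4.96 in the NM-203 samples, against 0.961, 0.847, 0.780 and 0.831 in the water samples (log2 change 2.84 ± 0.17, limma adjusted p = 1.08e-13). Its lowest NM-203 value was above its highest water value. E2F2, E2F7 and Foxm1 are, in turn, an activating E2F, a repressive E2F and the forkhead factor of mitosis: E2f2 rose by 2.26 log2 units, E2f7 rose by 2.16 log2 units and Foxm1 rose by 2.16 log2 units. Of 19 tested E2F, pocket protein and DREAM genes 13 rose and 1 fell (median 0.73). The one that fell was Rbl2, the p130 pocket protein of resting cells, by 0.84 log2 units, and the E2F genes of resting cells, E2f4 and E2f5, had log2 changes of 0.17 and 0.02.

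The S-phase and mitotic cyclins rose and the D-type cyclins did not. Cyclin genes Ccna2 and Ccnb1, the phosphatase gene Cdc25c and the kinase gene Cdk1 rose by 2.01, 1.97, 1.91 and 1.84 log2 units, while cyclin D1 (Ccnd1) fell by 0.44 and Ccnd2, Ccnd3 and their kinase gene Cdk4 had log2 changes of -0.02, -0.14 and -0.08. In all, 12 of 16 cyclin and CDK genes rose and 1 fell (median 1.12). Of 7 tested CDK inhibitor genes 0 rose and 4 fell (median -0.38): p27 (Cdkn1b) fell by 0.67, p18 (Cdkn2c) by 0.51 and p15 (Cdkn2b) by 0.35 log2 units, and p21 (Cdkn1a) had a log2 change of -0.44. Under scaling on the median of the tested genes the calls of Cdkn2c and Cdkn2b were lost (limma adjusted p = 0.167 and 0.311).

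Every one of the 26 tested kinetochore and spindle checkpoint genes rose (median 2.08), from Bub3 at the low end to Sgo1, the protector of centromeric cohesion, at 2.61 log2 units. On each array, the median of these genes relative to their water means was 2.13, 1.84, 2.31 and 2.21 on the NM-203 arrays, against 0.37, 0.06, -0.28 and -0.11 on the water arrays. The 4 NM-203 medians lay above the 4 water medians. Cohesin and condensin genes rose in 15 of 19 and fell in 0 (median 1.38). The members that act at sister chromatid cohesion and separation in dividing cells rose most: sororin (Cdca5) by 2.66, the cohesin acetyltransferase Esco2 by 2.42, separase (Espl1) by 2.35 and the condensin subunit Ncapg by 2.25 log2 units. The core cohesin subunits Smc1a, Stag1 and Stag2 had log2 changes of 0.19, -0.05 and -0.44. Tubulin genes and their binders rose in 10 of 14 (median 0.81), with the spindle protein gene Tacc3 1.98 and Tubb6 1.47 log2 units higher, and Tuba1a at -0.09.

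DNA supply, copying and repair genes rose with them. Among 23 nucleotide synthesis genes 20 rose and 0 fell (median 1.30), among them thymidine kinase (Tk1) and the ribonucleotide reductase subunit Rrm2, which rose by 2.17 and 1.91 log2 units. Replication-coupled chromatin genes rose in 13 of 16 (median 1.59): the licensing factor Cdt1 by 2.61, the chromatin remodeller Hells by 2.61, Uhrf1 by 2.24 and the chromatin assembly subunit Chaf1a by 2.19 log2 units. The paralogues of the histone chaperone Asf1 went in opposite directions, since Asf1b rose by 2.11 and Asf1a fell by 0.54 log2 units.

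Exo1, the exonuclease that resects broken ends, had relative intensities of 3.59, 3.80, 5.13 and 3.50 in the NM-203 samples, against 0.575, 0.474, 0.435 and 0.608 in the water samples (log2 change 2.93 ± 0.23, limma adjusted p = 1.85e-11). The groups did not overlap. It led the homologous recombination and Fanconi genes, of which 17 of 20 rose and 0 fell (median 1.94). In this group Fancd2, the ubiquitinated core of the Fanconi pathway, rose by 2.64 and Rad51ap1 by 2.63 log2 units, while Rad51c, Fancc and Fancg had log2 changes of -0.02, 0.23 and 0.33. Checkpoint genes rose in 13 of 16 (median 1.09), with claspin (Clspn) at 2.89, the kinase Chek1 at 2.29 and Timeless at 2.22 log2 units. Mismatch and base excision repair genes rose in 12 of 18 (median 0.56), with the flap endonuclease Fen1 at 2.08 and the glycosylase Neil3 at 2.07 log2 units.

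Genes that build ribosomes rose in nearly all cases, and those that encode the ribosome's own proteins in a smaller share. Ddx21, a nucleolar helicase, had relative intensities of 1.64, 1.58, 2.49 and 1.58 in the NM-203 samples, against 0.388, 0.283, 0.268 and 0.317 in the water samples (log2 change 2.53 ± 0.18, limma adjusted p = 3.38e-12). The groups did not overlap. Of 29 ribosome biogenesis genes 27 rose and 0 fell (median 1.28), including the box C/D ribonucleoprotein Nop56 by 2.18, Rrp12 by 1.86 and Nhp2 by 1.76 log2 units. Their per-array medians relative to water were 1.35, 1.35, 1.39 and 0.91 on the NM-203 arrays, against 0.04, -0.01, -0.04 and 0.02 on the water arrays. Of 25 ribosomal protein genes 6 rose (24%, against 18.5% of all gene names with a symbol) and 0 fell (against 21.3%). Their median was 0.12, and their largest rise was 0.53 log2 units, in Rps2. The per-array medians of these genes were 0.49, 0.12, -0.01 and -0.08 on the NM-203 arrays, against -0.08, 0.03, 0.00 and 0.06 on the water arrays, and the groups overlapped. Within slide 1 their median log2 change was -0.11. The difference between these lists was not tested.

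**Figure D3:**
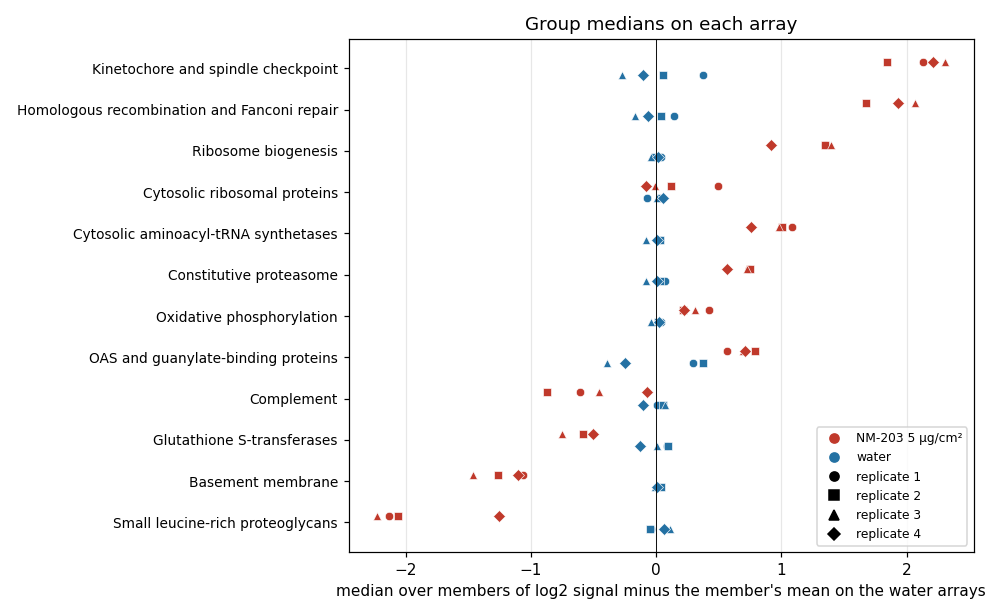
Median over a gene group's members of the log2 signal minus that member's mean on the water arrays (horizontal axis) for 12 gene groups, with one symbol per sample (red, NM-203; blue, water; shapes mark replicates 1 to 4). The ribosome biogenesis medians lie at 0.91 to 1.39 on the NM-203 arrays, and those of ribosomal protein genes at -0.08 to 0.49.

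Other parts of the protein supply chain rose as well. Of 20 cytosolic aminoacyl-tRNA synthetase genes, whose enzymes charge tRNAs, 19 rose and 0 fell (median 0.93), from 1.52 log2 units for Wars and 1.45 for Mars1 to Qars at -0.19, the member that did not pass. Translation factor genes rose in 12 of 17 (median 0.61), with the initiation factor genes Eif2s1 and Eif3b 1.39 and 1.18 log2 units higher, and the elongation factor Eef2 at -0.07. Proteasome genes rose in 21 of 24 and fell in 0 (median 0.69), within a narrow span whose highest value was 1.18 log2 units for Psmb3. All 20 nuclear pore and karyopherin genes rose (median 1.17), among them Rcc1, the exchange factor of the transport GTPase Ran, by 2.13, Rangap1 by 1.88 and the exportin Xpo1 by 1.71 log2 units. Splicing factor genes rose in 16 of 22 (median 0.56), led by U2af1 and Srsf7, by 1.27 and 1.27 log2 units.

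In mitochondria, import genes rose, and so did a part of the respiratory chain. Of 19 import and matrix chaperone genes 16 rose and 0 fell (median 0.83), with the small carrier Timm8a1 1.95 and the translocase subunit Timm50 1.23 log2 units higher. Of 26 oxidative phosphorylation genes 12 rose and 1 fell (median 0.28). The largest rises there were in cytochrome c (Cycs, 1.45 log2 units) and cytochrome c1 (Cyc1, 1.12 log2 units), and the complex IV subunit Cox4i1 had a log2 change of -0.03. The difference between these lists was not tested.

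Nutrient transporters split by gene. Slc7a11, the cystine-glutamate exchanger whose promoter is printed above, had relative intensities of 0.384, 0.371, 0.474 and 0.387 in the NM-203 samples, against 0.0888, 0.0517, 0.0448 and 0.0560 in the water samples (log2 change 2.79 ± 0.33, limma adjusted p = 5e-08). All NM-203 values exceeded all water values. The glycine transporter gene Slc6a9 rose by 1.74 log2 units, while the glutamate transporter gene Slc1a3 fell by 1.35 log2 units and Slc7a7, a light chain of cationic amino acid exchange, fell by 2.72 log2 units. Over the 17 tested amino acid transporters 6 rose and 3 fell (median 0.22). Serine and one-carbon enzymes rose in 10 of 15 and fell in 3 (median 0.93), with mitochondrial Mthfd2 1.83 log2 units higher and cytosolic formyltetrahydrofolate dehydrogenase (Aldh1l1) 1.48 lower on the same scale. In polyamine metabolism the synthesis genes Odc1 and Srm rose by 1.29 and 1.38 log2 units and the oxidase genes Smox and Paox fell by 0.89 and 0.35, so that the median of 9 genes was close to 0.

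Iron uptake showed the same kind of split. Tfrc, the transferrin receptor, had 1.27, 1.60, 1.75 and 1.19 in the NM-203 samples, against 0.522, 0.506, 0.539 and 0.441 in the water samples (log2 change 1.52 ± 0.17, limma adjusted p = 2.34e-08). Trf, transferrin itself, had 0.0461, 0.0297, 0.0432 and 0.0523 in the NM-203 samples, against 0.208, 0.190, 0.213 and 0.197 in the water samples (log2 change -2.27 ± 0.22, limma adjusted p = 1.8e-09). The receptor was thus higher and its secreted ligand lower, with no overlap in either. The iron exporter ferroportin (Slc40a1) fell by 0.89 log2 units, and the ferritin chains Fth1 and Ftl1 had log2 changes of -0.12 and 0.14. Of 14 iron and ferroptosis genes 3 rose and 3 fell (median 0.18). These shares, 21.4% each, are near the 18.5% and 21.3% of all gene names with a symbol.

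Interferon-induced defence genes rose in part. Oas3, which makes the second messenger that activates RNase L, had relative intensities of 1.08, 1.08, 1.26 and 1.22 in the NM-203 samples, against 0.344, 0.330, 0.197 and 0.191 in the water samples (log2 change 2.18 ± 0.20, limma adjusted p = 5.29e-10). Every NM-203 value was above every water value. Of 14 oligoadenylate synthetase and guanylate-binding protein genes 9 rose and 0 fell (median 0.63). Oas1g and Oas1a rose by 2.42 and 1.77 log2 units, while Oas1c, Gbp4 and Gbp6 had log2 changes of -0.10, -0.04 and -0.16. Probes of such closely related genes can share signal, and this also holds for the proliferin, Gstm and Ifi200 genes.

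Several sensors of nucleic acids rose. Zbp1, the sensor of left-handed nucleic acids, had 7.95, 8.37, 10.3 and 8.74 in the NM-203 samples, against 2.17, 2.19, 1.21 and 1.24 in the water samples (log2 change 2.43 ± 0.18, limma adjusted p = 4.67e-12). The DNA sensor cGAS (Cgas) rose by 1.75, Ifi204 by 1.27 and the NOD-like protein Nlrp2 by 3.51 log2 units. The adaptor genes Sting1 and Mavs had log2 changes of 0.14 and -0.10. Over 17 tested sensor genes 7 rose and 2 fell (median 0.23). Among 14 IRF and STAT genes 3 rose and 2 fell. Their shares, 21.4% higher and 14.3% lower, compare with 18.5% and 21.3% of all gene names with a symbol. Irf7 rose by 1.69 log2 units, and Irf3 had a log2 change of -0.70. In antigen presentation the immunoproteasome subunits Psmb10, Psmb8 and Psmb9 rose by 1.07, 1.05 and 0.98 log2 units, whereas the class I genes H2-K1, H2-D1 and B2m had log2 changes of 0.16, 0.04 and 0.01.

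Cytokine genes and their receptors moved both ways, 9 of 23 higher and 8 lower (median -0.16). Il33, an alarmin of the interleukin-1 family, had relative intensities of 0.0121, 0.0155, 0.00587 and 0.0152 in the NM-203 samples, against 0.167, 0.123, 0.128 and 0.144 in the water samples. It was well above background in 0 of 4 NM-203 samples, and all of them were below the water samples (at least 5.17-fold lower, limma adjusted p = 4.43e-13). Il1rl1, which encodes the receptor of interleukin-33, had 27.4, 25.2, 29.7 and 20.8 in the NM-203 samples, against 4.08, 4.43, 3.04 and 4.17 in the water samples (log2 change 2.72 ± 0.15, limma adjusted p = 3.39e-14). The ligand was lower and the receptor higher in every sample. Il1rn, the natural antagonist of the interleukin-1 receptor, had 0.0661, 0.0341, 0.0720 and 0.0423 in the NM-203 samples, against 0.00473, 0.00486, 0.00417 and 0.00449 in the water samples and was at least 2.41-fold higher (limma adjusted p = 5.49e-08), a call that was lost with no filter on dim probes (limma adjusted p = 0.0515). The receptor gene Il1r1 fell by 1.22 log2 units. Il15, a growth factor of natural killer and memory T cells, had 0.302, 0.408, 0.453 and 0.285 in the NM-203 samples, against 0.0653, 0.0516, 0.0296 and 0.0491 in the water samples (log2 change 2.92 ± 0.25, limma adjusted p = 1.06e-10). Il6 rose by 2.00 log2 units, and Ifnb1, interferon beta, rose by 1.75 log2 units.

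Chemokine genes rose in 7 of 14 and fell in 1 (median 0.46). The attractants Cxcl10, Ccl7 and Ccl8 rose by 2.74, 1.67 and 1.44 log2 units, and the membrane-bound Cx3cl1 fell by 1.40 log2 units. Acute-phase and antimicrobial genes did not move as a block: Saa3 and lipocalin 2 (Lcn2) were higher, Lcn2 with 1.28, 1.46, 1.28 and 0.703 in the NM-203 samples, against 0.266, 0.220, 0.269 and 0.223 in the water samples (log2 change 2.23 ± 0.21, limma adjusted p = 1.11e-09). By contrast, the lipopolysaccharide-binding protein gene Lbp fell by 1.97 log2 units and the orosomucoid gene Orm2 fell by 1.71 log2 units, so 3 of 12 rose and 4 fell (median close to 0).

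Complement genes rose in 0 and fell in 7 of 15 (median -0.52). The central component C3 fell by 2.08 log2 units, the surface inhibitor Cd59a fell by 1.97 log2 units and the protease C1s (C1s1) fell by 1.96 log2 units. Per-array medians were -0.61, -0.87, -0.46 and -0.07 on the NM-203 arrays, against 0.00, 0.06, 0.07 and -0.10 on the water arrays, and NM-203 replicate 4 lay within the range of the water samples.

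Prostaglandin genes changed in both directions. Ptgs2, the inducible cyclooxygenase, had 0.605, 0.981, 0.977 and 0.518 in the NM-203 samples, against 0.109, 0.0976, 0.101 and 0.130 in the water samples (log2 change 2.77 ± 0.22, limma adjusted p = 3.87e-11). Ptgds, the prostaglandin D synthase, had 0.0983, 0.127, 0.0765 and 0.127 in the NM-203 samples, against 2.25, 2.50, 1.76 and 1.80 in the water samples (log2 change -4.29 ± 0.25, limma adjusted p = 9.37e-14). The first was higher and the second lower in all NM-203 samples. The prostacyclin receptor gene Ptgir was at least 4.89-fold lower and the prostaglandin E receptor gene Ptger1 fell by 2.68 log2 units. In all, 3 of 14 rose and 6 fell (median -0.25, and 0.04 with only the members well above background in all 8 samples). Of 14 NF-kB subunit and feedback genes 3 rose (21.4%) and 3 fell (21.4%), with a median of 0.17. These shares are near those of all gene names with a symbol, 18.5% and 21.3%. The feedback genes Nfkbia and Tnfaip3 had log2 changes of -0.22 and 0.17.

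Genes of the extracellular matrix fell in several of its layers. Kera, the proteoglycan keratocan, had relative intensities of 0.0286, 0.0358, 0.0269 and 0.0445 in the NM-203 samples, against 0.296, 0.258, 0.350 and 0.399 in the water samples. Groups did not overlap (log2 change -3.27 ± 0.18, limma adjusted p = 3.39e-14). It belongs to the small leucine-rich proteoglycans, which bind collagen fibrils: of 11 tested members 0 rose and 10 fell (median -1.92, and -1.32 with only the members well above background in all 8 samples), asporin (Aspn) with a log2 change of -2.96 and fibromodulin (Fmod) of -2.90. The per-array medians of these proteoglycans were -2.13, -2.06, -2.23 and -1.25 on the NM-203 arrays, against -0.04, -0.05, 0.11 and 0.06 on the water arrays, so NM-203 replicate 4 was the nearest to water.

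Basement membrane genes rose in 1 of 18 and fell in 16 (median -1.24). Nid2, the linker protein nidogen 2, had 0.00719, 0.00553, 0.00715 and 0.00652 in the NM-203 samples, against 0.0483, 0.0622, 0.0813 and 0.0689 in the water samples (at least 2.37-fold lower, limma adjusted p = 4.67e-12). The laminin chains Lama4 and Lama2 fell, with log2 changes of -2.48 and -1.92 (for Lama2 -0.54, limma adjusted p = 0.0638, as the mean of its probes), and the collagen IV chain Col4a6 fell by 2.06 log2 units. Elastic fibre genes fell in 7 of 16 (median -0.38), with the latent TGF-beta binding protein Ltbp2 2.13 log2 units lower and elastin (Eln), fibrillin 1 (Fbn1) and fibrillin 2 (Fbn2) at log2 changes of -0.28, 0.47 and 0.41.

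Enzymes that process collagen fell in 11 of 19 and rose in 0 (median -0.59): the procollagen protease Bmp1 by 1.50, the lysyl oxidase-like gene Loxl1 by 1.45 and the prolyl hydroxylase subunit P4ha3 by 1.35 log2 units. The lysyl hydroxylase Plod2 had a log2 change of -0.23. All 7 ADAMTS protease genes tested fell (median -1.12), Adamts7 with a log2 change of -1.47 and Adamts10 of -1.27. Adamts16, also among the 7, turned sign within slide 3. The matricellular genes split, 3 of 18 higher and 9 lower (median -0.53): Ccn1 and Ccn5 rose by 1.38 and 1.33 log2 units, tenascin C (Tnc) fell by 1.76 log2 units and matrilin 2 (Matn2) fell by 2.33 log2 units. The hyaluronan synthase gene Has2 rose by 0.90 log2 units and the hyaluronidase gene Hyal1 fell by 1.65, as did versican (Vcan) by 1.51.

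Receptors that hold cells to matrix and to each other also changed. Itga10, a collagen-binding integrin chain, had 0.0423, 0.0537, 0.0348 and 0.0574 in the NM-203 samples, against 0.416, 0.467, 0.348 and 0.348 in the water samples (log2 change -3.09 ± 0.21, limma adjusted p = 2.05e-12). Itgb7, an integrin chain best known on lymphocytes, had 1.09, 1.07, 1.30 and 0.935 in the NM-203 samples, against 0.282, 0.282, 0.196 and 0.172 in the water samples (log2 change 2.26 ± 0.15, limma adjusted p = 1.34e-12). One chain was lower and the other higher in each NM-203 sample. A second collagen-binding chain, Itga11, fell by 2.63 log2 units, the widely shared chain Itgb1 had a log2 change of -0.27, and 2 of 15 integrin genes rose and 7 fell (median -0.62). Cadherins fell in 5 of 11 (median -0.43), among them Cdh15 and Cdh13, by 1.59 and 1.46 log2 units. Contractile and focal adhesion genes had a median of -0.16, with Cnn1 at a log2 change of -1.49, Ankrd1 at 1.19 and smooth muscle actin (Acta2) at 0.28.

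Secreted growth factors and their receptors fell in part. In the insulin-like growth factor axis 7 of 13 fell and 0 rose (median -0.45). Igf2r, the receptor that clears IGF2, had 1.01, 0.789, 0.843 and 1.63 in the NM-203 samples, against 7.72, 7.47, 6.82 and 6.27 in the water samples (log2 change -2.79 ± 0.17, limma adjusted p = 1.36e-13). The groups did not overlap, and Igf1 fell by 1.53 log2 units while the signalling receptor gene Igf1r had a log2 change of 0.13. Of the PDGF and VEGF families 11 of 17 fell and 1 rose (median -0.61), the receptor genes Pdgfrb and Pdgfra by 1.27 and 0.99 log2 units. Among Wnt ligands and antagonists the antagonist Dkk3 and the ligands Wnt6 and Wnt10a fell by 1.80, 1.59 and 1.25 log2 units (6 of 12 lower, 1 higher, median -0.50), and of the Wnt receptors and targets 7 of 16 fell and 0 rose (median -0.60), the receptor gene Fzd2 by 1.04 log2 units.

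The Hedgehog co-receptor gene Boc fell by 2.35 log2 units and the Notch ligand gene Jag1 fell by 1.02 log2 units, within a group in which 9 of 18 fell and 0 rose (median -0.34). TGF-beta ligand genes Tgfb2 and Tgfb3 fell by 1.10 and 0.93 log2 units, whereas the stress-induced family member Gdf15 rose by 1.27 (3 of 24 higher, 8 lower, median -0.23). Retinoid genes fell in 8 of 14 and rose in 0 (median -0.61), led by chemerin (Rarres2), 2.31 log2 units lower. Axon guidance genes fell in 12 of 25 and rose in 2 (median -0.70), with the semaphorin gene Sema3b at a log2 change of -1.80 and the Slit receptor gene Robo1 at -1.60. Of the EGF family, Hbegf, Ereg and Nrg1 rose by 1.83, 0.98 and 0.81 log2 units, and the ligand gene Egf fell by 1.00 log2 units.

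Some transcription factor genes of the growth response rose. Myc had relative intensities of 5.04, 6.88, 7.12 and 3.99 in the NM-203 samples, against 0.940, 0.978, 0.939 and 1.08 in the water samples (log2 change 2.51 ± 0.21, limma adjusted p = 8.7e-11). No NM-203 value overlapped the water values. In the AP-1 and immediate early group 7 of 22 rose and 1 fell (median 0.22): Fosl1 rose by 2.34 and Maff by 1.41 log2 units, while Fos and Egr1 had log2 changes of -0.31 and -0.60. The ERK phosphatase gene Dusp4 and the PEA3 factor gene Etv4 rose by 2.83 and 1.70 log2 units, and Dusp6 had a log2 change of -0.18. Of 23 Ras, Raf and Ras GAP genes 6 rose and 6 fell. These shares, 26.1% each, compare with 18.5% and 21.3% of all gene names with a symbol. Rras2 rose by 0.85 log2 units, and the ERK kinase gene Mapk3 fell by 1.04. Hras, a mouse relative of the introduced oncogene, rose by 0.30 log2 units. Whether its probe separates the cells' own gene from that oncogene was not tested. RGS genes, which shorten G protein signals, fell in 6 of 9 (median -0.39), and Rgs16 fell by 1.71 log2 units.

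Most growth arrest genes fell. Mertk, a TAM receptor tyrosine kinase that binds the growth arrest protein GAS6, had relative intensities of 0.00725, 0.0203, 0.00654 and 0.0131 in the NM-203 samples, against 0.0729, 0.0868, 0.0822 and 0.0824 in the water samples (at least 3.00-fold lower, limma adjusted p = 6.19e-10). Its groups did not overlap. Of the other TAM receptors, Tyro3 rose by 0.71 log2 units and Axl had a log2 change of 0.13. In the whole group 13 of 18 fell and 2 rose (median -0.75), including Gas7, which fell by 1.52 log2 units.

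Apoptosis genes fell on both sides of the balance. Bmf, which promotes death, fell by 2.33 log2 units, and Bcl2 and Cflar, which oppose it, fell by 0.92 and 1.23 log2 units. The pro-apoptotic pore genes Bak1 and Bax rose by 0.73 and 0.34. Altogether 12 of 21 fell and 2 rose (median -0.37).

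Most glutathione S-transferase genes, which act in detoxification, fell. Of 20 glutathione S-transferase genes 13 fell and 3 rose (median -0.55). The mu-class genes Gstm7 and Gstm4 fell by 1.86 and 1.14 log2 units, and the alpha-class genes Gsta2 and Gsta3 rose by 1.83 and 1.14. All 7 tested Gstm genes of the list fell. Autophagy genes fell in 5 of 18 and rose in 2 (median -0.11): Wipi1 fell by 0.93 log2 units and the cargo receptor Sqstm1 rose by 0.78. Cathepsin and galectin genes rose in 3 of 15 and fell in 1 (median 0.02), with the galectins Lgals8 and Lgals3 0.64 and 0.58 log2 units higher and cathepsins Ctsb and Ctsd at log2 changes of 0.11 and -0.30. In lipid handling the cholesterol exporter gene Abca1 fell by 1.28 and Fabp5 rose by 0.94 log2 units.

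Genes of mesenchymal identity fell in part. Mesenchymal transcription factors rose in 0 and fell in 10 of 20 (median -0.55), including Osr2, Sox4 and Runx2, by 1.69, 1.22 and 0.98 log2 units, and Twist1 and Zeb1 had log2 changes of -0.14 and -0.34. Hox genes, which mark position along the body axis, rose in 0 and fell in 11 of 22 (median -0.45), among them Hoxd4 and Hoxa3, by 1.40 and 1.25 log2 units. In the S100 family 8 of 12 fell and 1 rose (median -0.59), with log2 changes of -3.05 for S100a8 and -1.47 for S100a1, and S100a6 at -0.17. Of the circadian clock genes, Per3 and Dbp fell by 1.85 and 1.73 log2 units and Ciart and Nfil3 rose by 1.86 and 1.15, while the core gene Arntl had a log2 change of 0.15 (3 of 17 higher, 5 lower, median -0.22). The clock shares, 17.6% higher and 29.4% lower, compare with 18.5% and 21.3% of all gene names with a symbol.

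The cells carried fibroblast markers in both groups. Summed over the 10 fibroblast markers, relative intensity was 568 to 765 in the NM-203 samples and 868 to 983 in the water samples, with 7 of 10 markers lower, among them Col1a1 by 1.13 log2 units, and Thy1 at a log2 change of -0.46. Of 10 macrophage markers, Cd68, Csf1r, Lyz2, Aif1, Cd14 and Itgam were well above background in all 8 samples, Adgre1 in none, and Ptprc, Fcgr1 and Tyrobp did not pass the filter. Aif1, Lyz2 and Itgam fell, with log2 changes of -1.72, -1.50 and -0.45, and Cd68, Csf1r and Cd14 had log2 changes of 0.05, 0.48 and 0.11. Itgam missed the threshold with the mean of its probes (log2 change -0.12, limma adjusted p = 0.781), and likewise under median scaling, with no filter, with only the arrays of both groups and without NM-203 replicate 2 or water replicate 3 (log2 changes -0.29 and -0.35). The sum over 7 tested markers was 16.0 to 21.4 in the NM-203 samples and 19.8 to 28.5 in the water samples. The endothelial sum over 4 markers was 0.129 to 0.205 in the NM-203 samples and 0.222 to 0.304 in the water samples, where Pecam1 had a log2 change of -0.04 and Cdh5, well above background in the water samples only, was at least 2.97-fold lower. Epithelial and adipocyte sums were 0.254 to 0.410 and 0.413 to 0.480 in the NM-203 samples, against 0.374 to 0.495 and 0.351 to 0.491 in the water samples, with Epcam and Adipoq not tested. In bulk samples, fewer cells of a type and less RNA per cell cannot be told apart. The part of these markers in the results was not tested.

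Whether these changes also differ from those of another silica was addressed by setting the NM-203 samples directly against DE, a silica of fossil diatoms, at the same dose. This called 9494 gene names (29.2%), of which 4541 were higher (14.0%) and 4953 lower (15.2%). With the median of the tested genes as the scale, 4343 were higher and 2815 lower. Nlrp2 had relative intensities of 0.423 to 0.749 in the NM-203 samples, against 0.0460 to 0.0721 in the DE samples (log2 difference 3.32 ± 0.25, limma adjusted p = 1.84e-11). The smallest NM-203 value was above the largest DE value, and these groups did not overlap in 28.4% of gene names. Ptgds had 0.0765 to 0.127 in the NM-203 samples, against 1.69 to 2.62 in the DE samples (log2 difference -4.25 ± 0.25, limma adjusted p = 3.74e-13). Saa3 had 1.20 to 3.27 in the NM-203 samples, against 0.597 to 1.34 in the DE samples, so its groups overlapped although the difference passed the test (log2 difference 1.49 ± 0.27, limma adjusted p = 6.32e-05). The aminopeptidase gene Anpep and the carboxylesterase gene Ces1d were lower than in DE by log2 differences of -3.64 and -3.73 (limma adjusted p = 1.79e-11 and 9.21e-11). The ion pump gene Atp13a4 was at least 2.61-fold higher than in DE (limma adjusted p = 2.31e-05), since no DE sample was well above background.

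By gene group, 26 of 26 kinetochore genes and 28 of 29 ribosome biogenesis genes were higher than in DE, and 10 of 11 small leucine-rich proteoglycan and 16 of 18 basement membrane genes were lower. Of the acute-phase genes 3 of 12 were higher and 7 lower, and of the chemokines 5 of 14 were higher and 3 lower. Of the oligoadenylate synthetase and guanylate-binding protein genes 5 of 14 were higher and 2 lower than in DE, and their median log2 change against water was 0.63 with NM-203 and 0.64 with DE. Among all gene names with a symbol 18.7% were higher and 18.4% lower than in DE.

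Against NM-203 at 1 µg/cm², the dose of 5 µg/cm² called 9138 gene names (28.1%), 4102 of them higher (12.6%) and 5036 lower (15.5%). Car6 had relative intensities of 1.11 to 1.64 at 5 µg/cm², against 0.151 to 0.213 at 1 µg/cm² (log2 difference 2.96 ± 0.21, limma adjusted p = 1.13e-11). Ptgds had 0.0765 to 0.127 at 5 µg/cm², against 1.30 to 2.05 at 1 µg/cm² (log2 difference -3.88 ± 0.25, limma adjusted p = 2.28e-12). The doses did not overlap in 30.8% of gene names, both of these among them. Of the kinetochore genes 25 of 26 and of the ribosome biogenesis genes 27 of 29 were higher at 5 µg/cm², and 10 of 11 small leucine-rich proteoglycan genes were lower. Among all gene names with a symbol 17.0% were higher and 18.8% lower at 5 µg/cm². Against water, NM-203 called 28 gene names (0.0862%) at 1 µg/cm² and 8125 (25.0%) at 2 µg/cm², 5248 of them higher and 2877 lower, and DE called 327 (1.01%) at 5 µg/cm². The median log2 change of the kinetochore genes against water was 0.69 at 1 µg/cm², 1.59 at 2 µg/cm² and 2.08 at 5 µg/cm² of NM-203. With DE at 5 µg/cm² their median against water was 0.67. The samples at 2 µg/cm² lay on slides 4 and 5, which hold no sample of this water group, so that slide and dose cannot be told apart in that comparison. These comparisons share the NM-203 or the water samples.

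**Figure D4:**
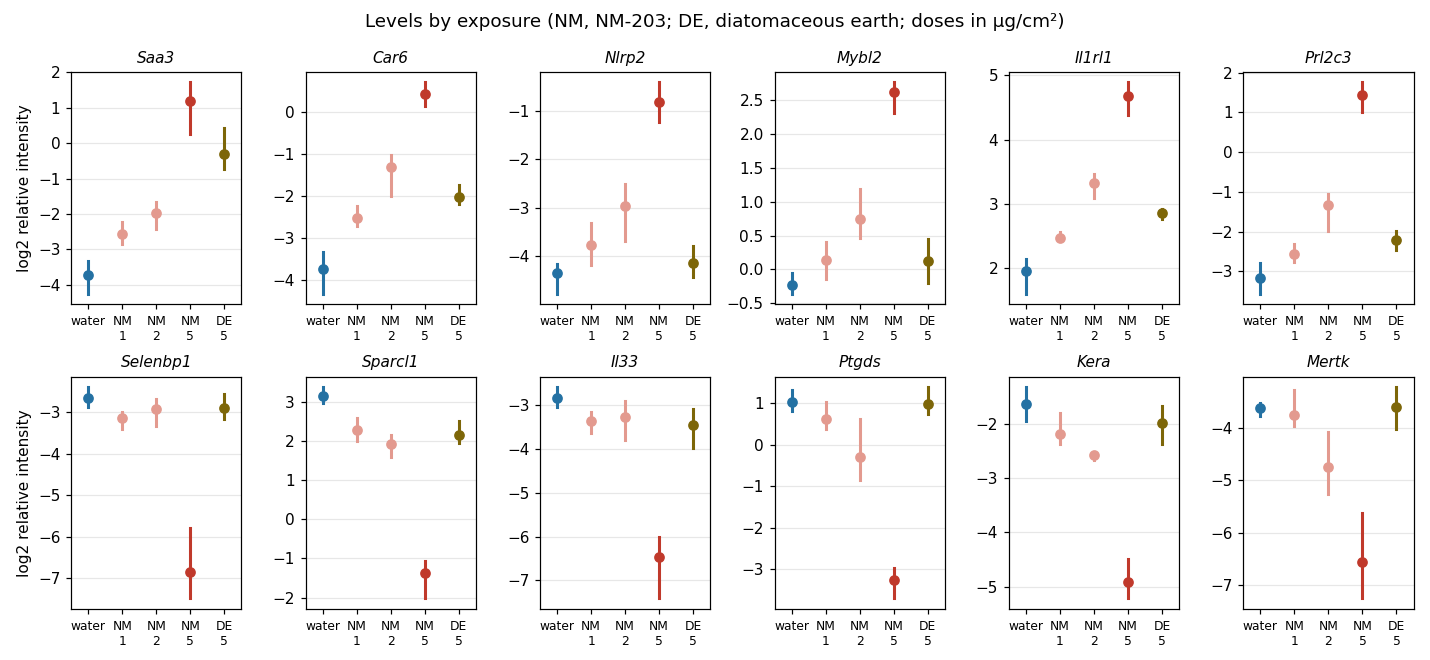
Log2 intensity relative to the array's 75th percentile (vertical axis) of 12 genes in the water samples, in NM-203 at 1, 2 and 5 µg/cm² and in DE at 5 µg/cm²; points are means of 4 samples and lines run from the lowest to the highest sample. For Car6 the lowest sample at NM-203 5 µg/cm² lies above every sample of the other exposures, and for Ptgds the highest sample at that dose lies below them. Scan day 2 held all 4 arrays of the middle dose, 1 array of each other NM-203 dose and 0 arrays of water or DE, so the middle dose and the day cannot be told apart against water.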

How the data were processed

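Gene expression was measured in Bhas 42 cells on 36 one-colour arrays, 4 in each of 9 groups, taken from the sample titles. Per the file headers, the deposited spot intensity was extracted with Agilent Feature Extraction 11.0.1.1, with background subtracted and no normalization between arrays. The authors' deposited value table holds log2 values centred on each probe's median, and how they were scaled before that is not given in the sources used here. RefSeq accessions named 32994 of 56605 probes (22911 genes), and 23611 probes had no name here.

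Each array's 75th percentile of log2 processed intensity, over non-control spots, was subtracted from its values. Outlier spots were dropped and spots of a probe averaged. A probe was tested where 3 or 4 arrays of some group had it well above background, and the brightest probe stood for its gene: 40677 probes gave 32490 gene names, 17872 of them symbols. All 9 group means were fitted with limma 3.58.1 (lmFit, eBayes, 27 residual degrees of freedom, R 4.3.3), which was first tested on simulated data, and p-values were adjusted over all gene names by the Benjamini-Hochberg method. "At least N-fold" sets the brighter group's mean against a floor on each dim array, namely the dimmest signal there that was well above background, or the probe's own signal if that was larger.

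The gene lists and members were chosen with earlier results of these data known, so they are described by counts and medians only. Named genes were the 12 largest changes each way among called genes without overlap, up to 4 called members per list by size of change (others by value only), symbols of unnamed gene models left out, 8 each way against DE and against NM-203 at 1 µg/cm², and the defining markers. Alternatives changed the background correction (normexp, offset 50, with quantile normalization, on the deposited median intensity), scaling, value table, probe filter, probe choice, samples fitted, slide, scan day and replicate block, and left out each replicate. Some genes that met the rule are not reported here. Python 3.11.15 with matplotlib 3.10.9 drew the figures.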

Additional observations from a re-analysis of the deposited data

Results flagged for a closer look

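Of the 261 genes named in the report, each checked in the NM-203 and in the water samples, 29 of 522 groups (5.56%) held 1 sample far from the other 3: its gap to the nearest other sample, as a share of the group's range on the log2 scale, was above Dixon's 95% critical value. Chance alone flags about 1 in 20 groups. The causes were not tested. Arntl was highest in NM-203 replicate 4, at a relative intensity of 0.332 beside 0.290 to 0.297 in the other NM-203 samples (gap of 0.837 of the range). For B2m, NM-203 replicate 1 lay above the rest, at 163 beside 106 to 112, a gap of 0.862 of the range. NM-203 replicate 3 held the lowest Cacna1g value, 0.0584 beside 0.0916 to 0.0997, with a gap of 0.841. Cdh5 was highest in NM-203 replicate 1, at a relative intensity of 0.0166 beside 0.00545 to 0.00598 in the other NM-203 samples (gap of 0.917 of the range). For Csf1r, NM-203 replicate 4 lay below the rest, at 1.44 beside 4.12 to 4.40, a gap of 0.941 of the range. NM-203 replicate 3 held the highest Ddx21 value, 2.49 beside 1.58 to 1.64, with a gap of 0.918. Fbn2 was highest in NM-203 replicate 2, at a relative intensity of 0.511 beside 0.222 to 0.230 in the other NM-203 samples (gap of 0.96 of the range). For Fos, NM-203 replicate 3 lay above the rest, at 0.201 beside 0.111 to 0.121, a gap of 0.851 of the range. NM-203 replicate 3 held the lowest Gbp6 value, 0.783 beside 0.982 to 0.998, with a gap of 0.933. Hbegf was lowest in NM-203 replicate 4, at a relative intensity of 0.212 beside 0.383 to 0.413 in the other NM-203 samples (gap of 0.887 of the range). For Irf3, NM-203 replicate 1 lay below the rest, at 1.55 beside 5.61 to 6.29, a gap of 0.919 of the range. NM-203 replicate 2 held the lowest Itgam value, 9.76 beside 14.6 to 15.4, with a gap of 0.873. Nfil3 was lowest in NM-203 replicate 4, at a relative intensity of 4.03 beside 4.65 to 4.72 in the other NM-203 samples (gap of 0.908 of the range). For Nop56, NM-203 replicate 4 lay below the rest, at 17.0 beside 24.3 to 24.4, a gap of 0.993 of the range. NM-203 replicate 4 held the highest Rbl2 value, 0.345 beside 0.244 to 0.257, with a gap of 0.845. Rrp12 was lowest in NM-203 replicate 4, at a relative intensity of 3.64 beside 8.72 to 8.89 in the other NM-203 samples (gap of 0.979 of the range).

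Cdkn1b was lowest in water replicate 3, at a relative intensity of 8.67 beside 10.1 to 10.3 in the other water samples (gap of 0.879 of the range). For Cdt1, water replicate 3 lay below the rest, at 2.85 beside 3.54 to 3.64, a gap of 0.885 of the range. Water replicate 1 held the lowest E2f4 value, 0.112 beside 0.371 to 0.432, with a gap of 0.888. Fancg was lowest in water replicate 3, at a relative intensity of 0.550 beside 0.729 to 0.765 in the other water samples (gap of 0.854 of the range). For Fbn1, water replicate 4 lay below the rest, at 0.125 beside 0.171 to 0.174, a gap of 0.955 of the range. Water replicate 4 held the highest Ifi213 value, 0.0188 beside 0.00412 to 0.00455, with a gap of 0.934. Itgam was highest in water replicate 3, at a relative intensity of 22.3 beside 16.9 to 17.1 in the other water samples (gap of 0.944 of the range). For Nlrp2, water replicate 2 lay below the rest, at 0.0364 beside 0.0537 to 0.0555, a gap of 0.923 of the range. Water replicate 2 held the lowest Rangap1 value, 1.14 beside 1.17 to 1.17, with a gap of 0.873. Sema3b was lowest in water replicate 4, at a relative intensity of 1.07 beside 1.94 to 2.06 in the other water samples (gap of 0.909 of the range). For Tuba1a, water replicate 1 lay below the rest, at 34.0 beside 44.2 to 45.9, a gap of 0.873 of the range. Water replicate 3 held the lowest Tyro3 value, 2.24 beside 2.72 to 2.80, with a gap of 0.868. U2af1 was lowest in water replicate 3, at a relative intensity of 12.1 beside 15.3 to 16.0 in the other water samples (gap of 0.833 of the range).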

How the results depend on the processing

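The counts of called genes against water, DE and NM-203 at 1 µg/cm² stayed within 1.5 times under normexp with quantile normalization, the deposited table, both filters, the mean of probes, the fit of both groups alone, a block for slide or for scan day, and each left-out replicate (9589 to 10650 against water, 8361 to 9444 against DE, 7967 to 9042 against NM-203 at 1 µg/cm²). Scaling on the median of the tested genes lowered the genes called lower to 4065 against water, 2815 against DE and 3176 against NM-203 at 1 µg/cm². Within a slide an arm holds 1 or 2 arrays, with no replicate check of its own, so the spread comes from the fit of all groups and a lone array is assumed to vary like them. Slide 1 (2 NM-203 arrays at 5 µg/cm² and 1 each of DE, NM-203 at 1 µg/cm² and water) called 5572 gene names against water (2457 higher, 3115 lower), 3862 against DE (1945 higher, 1917 lower) and 4627 against NM-203 at 1 µg/cm² (2150 higher, 2477 lower). Slide 3 (1 NM-203 array at 5 µg/cm², 2 DE arrays and 1 each of NM-203 at 1 µg/cm² and water) called 5192 against water (2398 higher, 2794 lower), 5261 against DE (2622 higher, 2639 lower) and 3018 against NM-203 at 1 µg/cm² (1534 higher, 1484 lower), and slide 5, with 1 array against 1, called 3384 against NM-203 at 1 µg/cm² (1622 higher, 1762 lower). Medians turned sign by more than the spread of the NM-203 arrays for the prostaglandin list with only probes well above background on all arrays (0.044), the adipocyte markers under that filter (-0.061) and within slide 3 (-0.089), and the iron list within slide 1 (-0.14). Another 12 lists with medians of -0.12 to 0.12 changed sign under at least 1 alternative: ribosomal proteins (-0.11 within slide 1), polyamine, acute-phase, cathepsin and galectin, autophagy (0.13 within slide 3), IRF and STAT (-0.14 with the mean of probes), EGF (-0.11 with slide as a block), Ras, ERK feedback, lipid handling, macrophage (-0.31 with slide as a block) and epithelial lists. Of the lists with a median beyond 0.5, normexp with quantile normalization moved by over 1.5 times the cyclins (0.72), splicing factors (0.37), complement (-0.24), matricellular proteins (-0.25), Wnt receptors (-0.31), axon guidance genes (-0.35), endothelial (-0.20) and adipocyte markers (0.18). The filter for all arrays did so for complement (-1.04), matricellular proteins (-0.13), integrins (-0.34) and endothelial markers (-0.041), the mean of probes for retinoid genes (-0.39), slide as a block and leaving out water replicate 1 for adipocyte markers (0.36 and 0.28), slide 1 for glutathione S-transferases (-0.33) and complement (-0.29), and slide 3 for the oligoadenylate synthetase group (1.05) and integrins (-0.38). Adamts16 turned sign within slide 3 (log2 change 0.11, limma adjusted p = 0.987). The causes were not tested. Of 299 genes chosen by the rule, 11 lost their call under median scaling, 7 with both groups alone, 1 to 4 under normexp, the deposited table, no filter, the mean of probes and each block, 3 to 8 without 1 sample, 41 within slide 1 and 47 within slide 3. The filter for all arrays tested 259 of them, and 0 of these lost it. That filter leaves a gene's values and log2 change as they were, so it is hardly a check of these calls. The labels do not say that a replicate number marks a shared experiment. Deviations of same-numbered samples correlated at -0.162 to 0.021, and 0 of 4 numbers were best matched by their own. Only the samples numbered 4 shared a slide, and the closest match (0.291) joined NM-203 replicate 2 and water replicate 3, both on slide 3. Slide can mask a shared experiment here, so this check cannot tell whether the numbers mark pairs. With the replicate block the counts were 10688 against water, 9392 against DE and 9076 against NM-203 at 1 µg/cm². Probes near background limit the size of the largest falls: it is a bound where a whole group was dim and uncertain where a part of it was.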
